A study of Mus musculus with 9 samples.

Results

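Lin28a, Lin28b, Igf2bp1, Igf2bp2, Igf2bp3, Hmga1 and Hmga2 are 7 oncofetal genes, so called because embryonic tissue transcribes them, most adult tissue keeps them low, and many tumors carry them again. They were picked by gene symbol out of 55367 genes in an RNA-Seq table of mouse osteosarcoma (OS), a bone tumor, and their levels were compared between tumors with and without a Myc transgene. RNA came from whole tumors of 4 p53-driven mice, genotype Col2.3-Cre/TrpP53fl/+, and of 5 Myc-knockin mice, whose genotype label gives Cre-Lox-Stop-Lox;(LSL)-c-MycT58A together with p53fl/+. Both groups carried a Cre recombinase driven by the osteoblast-specific Col2.3 promoter and a floxed allele of Trp53, and the Myc-knockin mice also carried a Myc allele with the T58A change behind a stop cassette that Cre removes. Cre was therefore aimed at cells that use an osteoblast promoter, whereas the RNA came from every cell type in the tumor. In such bulk tissue, fewer cells that express a gene and less RNA per cell cannot be told apart. The ages of the mice were not in the labels.

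The 7 genes are tied together by the let-7 microRNAs, short RNAs that repress mRNAs carrying a match to their seed, bases 2 to 8. Lin28a and Lin28b are RNA-binding proteins that hold let-7 precursors back from maturing, and let-7 in turn represses the mRNAs of Lin28. The Igf2bp proteins bind mRNAs in the cytoplasm, among them those of Igf2 and Myc, and change their stability and transport. Hmga1 and Hmga2 are AT-hook proteins that bind the minor groove of AT-rich DNA and change chromatin architecture, and Hmga2 is among the best known let-7 targets.

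RefSeq's sequences of 9 mature let-7 and miR-98 strands of the mouse (GRCm38.p6) all had the seed GAGGUAG. Below, 3 of them are given 5′ to 3′ with the seed in capitals, to show that they differ only outside it:
mmu-let-7a-5p: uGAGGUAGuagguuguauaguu
mmu-let-7d-5p: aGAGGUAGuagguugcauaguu
mmu-miR-98-5p: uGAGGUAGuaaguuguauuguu

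The 3′ untranslated region (3′ UTR) of every one of the 7 genes, as GENCODE annotates it on that build (GRCm38, mm10), held at least 1 match to this seed, CTACCTC on the transcript's strand. Lin28b, Igf2bp1 and Hmga2 had 4 matches each, Lin28a had 2, and Igf2bp2, Igf2bp3 and Hmga1 had 1 each. Of 21025 genes with such a region, 9.02% had 1 or more. Since longer regions hold more matches by length alone, each gene was also set beside 3′ UTRs of 0.8 to 1.25 times its own length. Among those, 0.0821% had as many as the 4 of Hmga2, 0.166% as many as the 4 of Igf2bp1, 0.221% as many as the 4 of Lin28b and 2.02% as many as the 2 of Lin28a, whereas 8.20% to 13.3% had as many as the single match of Hmga1, Igf2bp2 or Igf2bp3. A match is a string of letters and not a measured site. The first match of each gene is printed below in capitals, with the bases around it, on the transcript's strand:
Lin28a, chr4:134005189-134005211, minus strand: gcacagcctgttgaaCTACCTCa
Lin28b, chr10:45381022-45381044, minus strand: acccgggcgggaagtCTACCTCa
Igf2bp1, chr11:95961778-95961800, minus strand: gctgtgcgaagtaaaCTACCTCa
Igf2bp2, chr16:22059473-22059495, minus strand: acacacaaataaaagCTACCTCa
Igf2bp3, chr6:49086787-49086809, minus strand: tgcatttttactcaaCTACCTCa
Hmga1, chr17:27563277-27563299, plus strand: tcctctgttcacaaaCTACCTCt
Hmga2, chr10:120364224-120364246, minus strand: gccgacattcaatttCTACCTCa

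The libraries were unlike in depth and content. Counts on genes totalled 2716322 to 17073285 per tumor, and 3 counts, taken as the least a library can show, came to between 0.114 and 2.39 CPM. CPM here is counts scaled to 1000000 of the library size after edgeR's TMM normalization. A group of 10 satellite-repeat genes took 44.2% of the counts in F187, 67.8% in M351, 23.2% in M408 and 81.0% in M9, against at most 0.0242% in the other 5 libraries. These genes were chosen for being over 100 times more abundant in those 4 libraries, so the contrast is built into the choice. Reads also fell on chemosensory receptor genes, which bone is not known to transcribe, at 1.12 and 1.24 counts per kb of exon in M351 and M9, 0.713 in F187 and 0.152 in M408, against 0.0369 to 0.0477 elsewhere. This rate, times a gene's exon length, is called the expected background of that gene. M624 and M664 held only 5.33 and 9.32 counts of the small RNA Rn7sk per 1000000 outside the satellite genes, and the other 7 libraries at least 8858. Every Myc-knockin library thus had either satellite reads or low Rn7sk, whereas F325, F331 and F368 had neither. No p53-driven library had the low Rn7sk of M624 and M664. Genotype and kind of library therefore cannot be fully told apart in the comparisons below. No label ties a sample to a column of the table, so tumors keep their column names. The genotypes of 6 columns are listed in the study's supporting data, and M351, M9 and M664 were taken as Myc knockin from the letter M.

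Myc itself marked the groups. It was at 46.2, 43.5, 67.1 and 60.4 CPM in F187, F325, F331 and F368, which are the p53-driven tumors, and at 270, 520, 144, 1045 and 905 CPM in M351, M408, M9, M624 and M664, which are the Myc-knockin tumors. Trp53, of which both groups carry the floxed allele, differed by a log2 fold change of 0.58 (standard error 0.60, adjusted p = 0.569, edgeR).

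All 6 oncofetal genes that could be tested had a higher fitted level in the Myc-knockin tumors, and 2 of them, Hmga1 and Igf2bp3, were called higher. They were tested with edgeR's quasi-likelihood method, p values were adjusted by Benjamini and Hochberg's procedure over the 15365 genes that passed the filter on low counts, and a call needed an adjusted p under 0.05 and a fold over 1.5. Of all genes tested, 2.26% were called higher in the Myc-knockin tumors and 5.27% in either direction, and the median log2 fold change was 0.14. Lin28a did not pass the filter. The calls rested on the 3 p53-driven libraries with little background: leaving out F325, F331 or F368 gave adjusted p values of 0.0811, 0.0827 and 0.0909 for Hmga1 and of 0.0912, 0.102 and 0.112 for Igf2bp3 (edgeR), with log2 fold changes of 5.00 to 5.18 and 2.28 to 2.44, while over all genes 8, 6 and 5 calls were left. Leaving out M9 brought in Igf2bp2 (adjusted p = 0.0386, edgeR) and Hmga2 (adjusted p = 0.0477, edgeR), where 6.03% of all genes were called higher, and leaving out M624 brought in Igf2bp2 (adjusted p = 0.0311, edgeR), where 1.13% were. In every Myc-knockin tumor, the levels of Hmga1 and Igf2bp3 lay above those of every p53-driven tumor, which held for 2 of the 6 and for 5.41% of all genes tested. This separation rests on the normalization: relative to all counts, satellite genes included, M9 had 2.26 counts of Hmga1 and 2.55 of Igf2bp3 per 1000000, below the 3.47 of both genes in F331, while the other 4 Myc-knockin tumors stayed above every p53-driven one for both genes. With the expected background taken off, M9 also fell below every p53-driven tumor for Igf2bp3, but not for Hmga1.

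**Figure D1:**
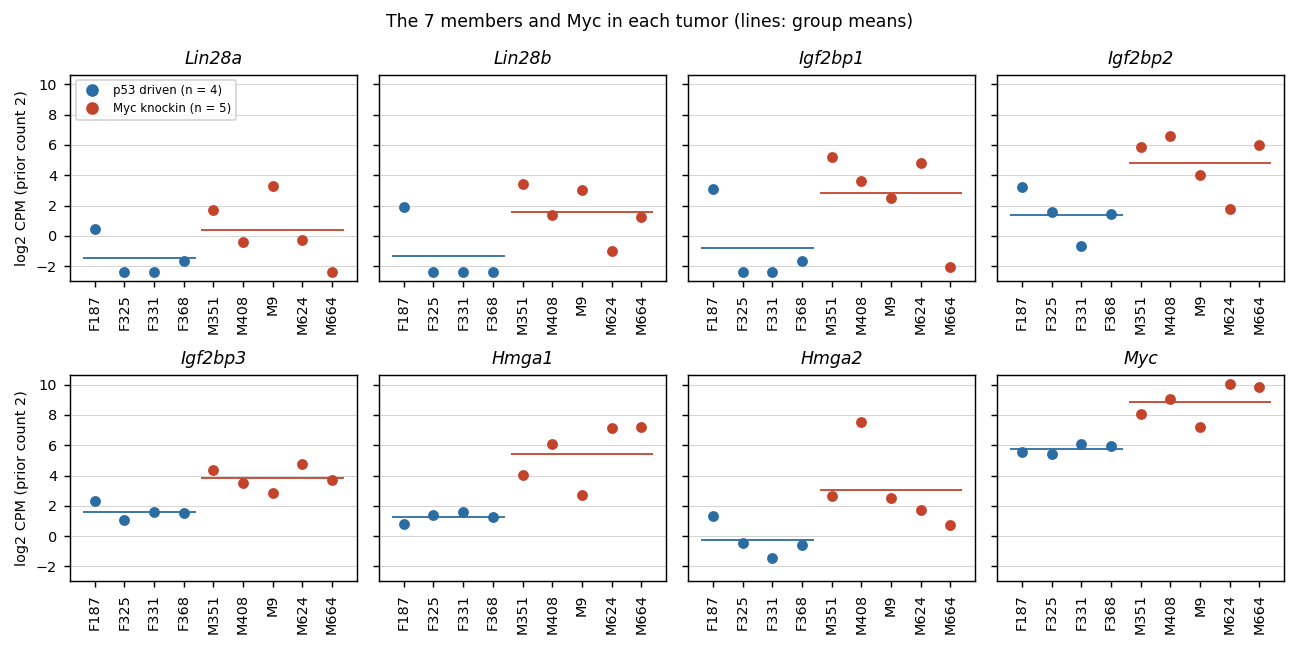
Level of each oncofetal gene and of Myc in each tumor, as log2 CPM with a prior count of 2 on the vertical axis. Each point is 1 tumor, blue for p53 driven and red for Myc knockin, and the lines are group means. Hmga1 and Igf2bp3 share with Myc that, background included, no red point falls as low as a blue one, whereas Hmga2 has 1 tumor, M408, far above the rest.

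Hmga1 (ENSMUSG00000046711, chromosome 17, 27556497 to 27563674, plus strand) was low and even among the p53-driven tumors, at 1.58, 2.41, 2.85 and 2.19 CPM in F187, F325, F331 and F368. In the Myc-knockin tumors it reached 16.0 CPM in M351, 68.3 in M408, 6.37 in M9, 142 in M624 and 144 in M664. The groups did not overlap, and the Myc-knockin tumors spread over a far wider range than the p53-driven ones. The means were 75.5 ± 66.3 CPM (SD, n = 5) and 2.26 ± 0.53 CPM (SD, n = 4). The log2 fold change was 5.03 (standard error 0.88, edgeR adjusted p = 0.0217), and the two-sided exact permutation test gave p = 0.0159, unadjusted and the smallest that the arrangements of 5 and 4 tumors allow. The lowest Myc-knockin tumor, M9, rested on 8 counts, with 2.64 expected from background, and its 95% Poisson interval of 2.75 to 12.6 CPM met that of F331, 1.96 to 4.01 CPM. Intervals and the 3-count limit cover counting error only. With M624 and M664 left out, it was 3.83 (adjusted p = 0.0337, edgeR), so the call stood, with 1.8% of all genes called higher in that comparison. The 2 Myc-knockin tumors whose genotype the supporting data list, M408 and M624, had 68.3 and 142 CPM.

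Mouse Hmga1 has a near-identical copy on chromosome 11, Hmga1b (ENSMUSG00000078249), and reads from one can be counted on the other. Hmga1b ran from 3.63 to 5.13 CPM in the p53-driven tumors and from 10.4 to 115 CPM in the Myc-knockin tumors, with a log2 fold change of 3.74 (standard error 0.61, adjusted p = 0.0195, edgeR). In 7 libraries, 23.5% to 44.0% of the counts on the pair lay on Hmga1, and in M624 and M664 the share was 71.0% and 72.9%, with exact binomial 95% intervals of 69.7% to 72.2% and 71.6% to 74.1%. The pair's summed level does not depend on how the counted reads were divided between Hmga1 and Hmga1b. Whether reads that fit both copies were counted is not given, so the sum may lack them. The summed level was 5.84 to 6.71 CPM in the p53-driven tumors, 16.7 CPM in M9, 41.9 in M351, 184 in M408, 200.5 in M624 and 198 in M664. With the counts of Hmga1 and Hmga1b added before the fit, edgeR gave a log2 fold change of 4.36 (adjusted p = 0.0193).

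Hmga1 and Myc ranked the Myc-knockin tumors almost alike. Both were lowest in M9, then M351, then M408, and highest in M624 and M664, whose Hmga1 levels of 142 and 144 CPM had overlapping Poisson intervals. This order is that of the counts on Hmga1 alone. Hmga1b was highest in M408, at 115 CPM, with 58.1 CPM in M624 and 53.8 CPM in M664. The sum of both was 184, 200.5 and 198 CPM in M408, M624 and M664. Of 9539 tested genes with a mean of at least 10 CPM, Myc had the log2 level most like that of Hmga1 over the 9 tumors (Pearson's r = 0.991), followed by Gm14494 (r = 0.988) and Prdx6 (r = 0.985), an antioxidant peroxiredoxin. The points of such an r share genotype and depth. The counts outside the satellite genes rose through the Myc-knockin libraries in nearly that order, from 672941 in M9 and 873634 in M351 to 3301001 in M408, 15769777 in M664 and 17073254 in M624. In the p53-driven tumors such counts ran from 1687166 in F187 to 10590751 in F325, and Hmga1 ran from 1.58 CPM in F187 to 2.85 CPM in F331. The part of depth in the ranking by Hmga1 and Myc was not tested.

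**Figure D2:**
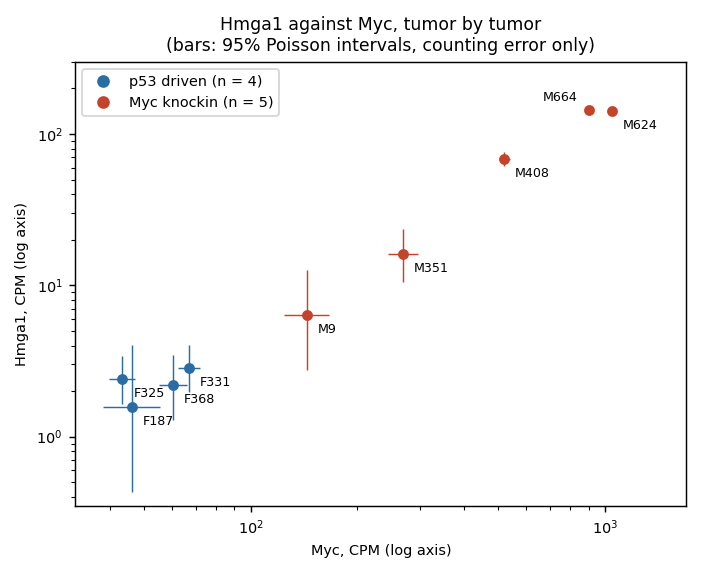
Hmga1 against Myc in the 9 tumors, both in CPM on log axes, with blue points for p53-driven and red for Myc-knockin tumors. Bars are 95% Poisson intervals and cover counting error only. The 4 blue points form a cluster at 1.58 to 2.85 CPM of Hmga1, and the red points climb from M9 at 6.37 CPM to M624 and M664 at 142 and 144 CPM. Counts on Hmga1b are not included, and with them the level was 184 CPM in M408, 200.5 in M624 and 198 in M664.

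Hmga2 (ENSMUSG00000056758, chromosome 10, 120361275 to 120476469, minus strand), the other AT-hook gene, had a different distribution. It was at 2.37, 0.544, 0.173 and 0.486 CPM in F187, F325, F331 and F368, and at 6.16, 183, 5.58, 3.05 and 1.51 CPM in M351, M408, M9, M624 and M664. M408 alone held 91.8% of the summed level of the 5 Myc-knockin tumors and was 29.7 times the next tumor. Of the 6 tested genes, only Hmga2 had its highest Myc-knockin tumor more than 4 times above the next, as 1.84% of all genes tested did. The log2 fold change was 5.90 (standard error 1.70) and missed the threshold (adjusted p = 0.0638, edgeR), and the exact permutation test gave p = 0.0317. Without M408 the log2 fold change fell to 2.32. M664 lay below F187, so the groups overlapped. In M9, 7 counts stood against 8.42 expected from background, in M351 10 against 7.60 and in F187 6 against 4.83, so the level of these 3 libraries was near what background gives. M624 and M664, with little background, had 80 and 35 counts, and their 3.05 and 1.51 CPM lay above the 0.173 to 0.544 CPM of F325, F331 and F368.

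The high Hmga2 of M408 was not shared by its neighbours in the genome. Its log2 level in M408 was 6.45 above the median of the other 8 tumors, whereas the same difference had a median of 0.18 and a highest value of 1.23 over the 12 tested genes within 1000 kb that averaged at least 1 CPM. The 3 genes whose log2 level over the 9 tumors was most like that of Hmga2 were Ptprn (Pearson's r = 0.964), a protein of dense-core vesicles, Nptx1 (r = 0.961), a neuronal pentraxin, and C2cd5 (r = 0.944). They were chosen for likeness to a gene that peaks in M408, so their own peak in M408 is no separate finding. It was 65.6 CPM for Ptprn, 67.8 CPM for Nptx1 and 470 CPM for C2cd5, where the next highest tumor had 9.56, 10.5 and 43.1 CPM.

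Igf2bp3 (ENSMUSG00000029814, chromosome 6, 49085223 to 49214957, minus strand) was, background included, the most even of the 7 across Myc-knockin tumors. It was at 4.74, 1.87, 2.85 and 2.67 CPM in F187, F325, F331 and F368, and at 20.9, 11.2, 7.17, 27.5 and 13.2 CPM in M351, M408, M9, M624 and M664. The groups did not overlap. The means were 16.0 ± 8.17 CPM (SD, n = 5) and 3.03 ± 1.22 CPM (SD, n = 4), the log2 fold change was 2.45 (standard error 0.48, edgeR adjusted p = 0.0260), and the exact permutation test gave p = 0.0159. The SD of its log2 level among the Myc-knockin tumors was 0.75, near the median of 0.78 over all genes tested, against 1.75 to 2.93 for the other 5 tested genes. In M9 all 9 counts could be background, of which 10.1 were expected, and in F187 5.82 of 12 were expected. With background taken off, M9 stood at -0.91 CPM, below the 1.84 to 2.83 CPM of the p53-driven tumors. The separation of the groups and the evenness thus hold only for levels as counted. With the expected background taken off every count, the log2 fold change was 2.56 and the call was lost (edgeR adjusted p = 0.0560), while 4.29% of all genes were called higher. Igf2bp3 overlaps Malsu1 on the opposite strand. Hmga1 likewise overlaps AI413582 and Gm49774, and Hmga2, Lin28a and Igf2bp1 also overlap genes on the opposite strand. The kit marks strand, but the strand setting of the counting is not given in the sources used here. Reads of such overlapping genes may therefore not be fully apart.

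Igf2bp2 (ENSMUSG00000033581, chromosome 16, 22059009 to 22163299, minus strand) stood at 9.08, 2.72, 0.432 and 2.55 CPM in F187, F325, F331 and F368. The Myc-knockin tumors split: M351 had 57.2, M408 97.2, M664 64.1 and M9 15.9 CPM, all above every p53-driven tumor, and M624 had 3.16 CPM, below F187. The log2 fold change of 3.84 (standard error 1.02) just missed the threshold (adjusted p = 0.0524, edgeR), and the exact permutation test gave p = 0.0317. Leaving out M624 and M664 gave 4.27, which was called (adjusted p = 0.0394, edgeR). With DESeq2 in place of edgeR, 3 of the 6 genes were called higher, Igf2bp2 beside Hmga1 and Igf2bp3 (Igf2bp2 adjusted p = 0.000335), but 9.98% of all genes tested were called higher too. limma-voom with quality weights called the same 3 genes, and 4.32% of all genes higher. Wnt7b, a Wnt ligand, was among the 3 genes most like Igf2bp2 in log2 level over the 9 tumors (Pearson's r = 0.876), after Mapkapk3 (r = 0.931), a kinase downstream of p38, and Arg1 (r = 0.880), the urea cycle enzyme arginase.

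Igf2bp1 (ENSMUSG00000013415, chromosome 11, 95957163 to 96005940, minus strand) was all but silent in F325, F331 and F368, with 0, 0 and 1 counts, and reached 8.29 CPM in F187. Among the Myc-knockin tumors M351 had 36.9, M408 12.3, M9 5.58 and M624 27.8 CPM, whereas M664, among the 2 deepest libraries, had 1 count, or 0.0432 CPM. Hence 3 of the 5 Myc-knockin tumors lay above every p53-driven tumor. The log2 fold change was 3.37 (standard error 1.78, edgeR adjusted p = 0.251), and the exact permutation p was 0.111. Without F187, 1 count is left in the p53-driven group and the fitted value was 8.55 (edgeR adjusted p = 0.0565), which depends on the prior count and is no measure of size. Of the 21 counts in F187, 6.90 were expected from background, and in M9 the 7 counts stood below the 12.0 expected. In M624 the gene had 729 counts. Its log2 level there was 4.37 above the median of the other 8 tumors, and the same difference had a median of 0.10 over 36 tested genes within 1000 kb. One of these, Ngfr, the low-affinity nerve growth factor receptor, had a larger difference in M624 than Igf2bp1, 4.72, at 51.6 CPM, and is named after its values were seen. The genes most like Igf2bp1 in log2 level over the 9 tumors were Smarca5 (Pearson's r = 0.951), a chromatin remodeller, Zgrf1 (r = 0.950) and Col7a1 (r = 0.946), the collagen of anchoring fibrils.

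The tumors thus differed in which Igf2bp gene they carried. Levels of different genes were compared per kb of exon. Of the 3 genes' summed CPM per kb, Igf2bp2 made up 83.3% in M408, 84.3% in M664, 54.8% in M351 and 59.7% in M9, but only 6.40% in M624, where Igf2bp3 made up 50.6% and Igf2bp1 43.0%. These shares include background. In M9 the 7 counts of Igf2bp1 and 9 of Igf2bp3 did not exceed the 12.0 and 10.1 expected from it, so only Igf2bp2 stood above background there. M664 had almost no Igf2bp1, at 0.0434% of the sum. The summed level was 14.1, 15.8, 3.61, 6.67 and 10.3 CPM per kb in M351, M408, M9, M624 and M664, and 2.66, 0.597, 0.408 and 0.685 CPM per kb in F187, F325, F331 and F368. Each Myc-knockin tumor was thus above each p53-driven tumor, but for M9 this order turned with the processing. With the expected background taken off, the sum was 0.635 CPM per kb in M9 and 1.82 in F187, and relative to all counts it was 1.28 and 2.23 per 1000000 and kb. M351, M408, M624 and M664 stayed above every p53-driven tumor on both scales, at 6.67 to 15.7 with background taken off and 8.44 to 20.1 relative to all counts. These shares are descriptions, with 1 library per tumor.

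**Figure D3:**
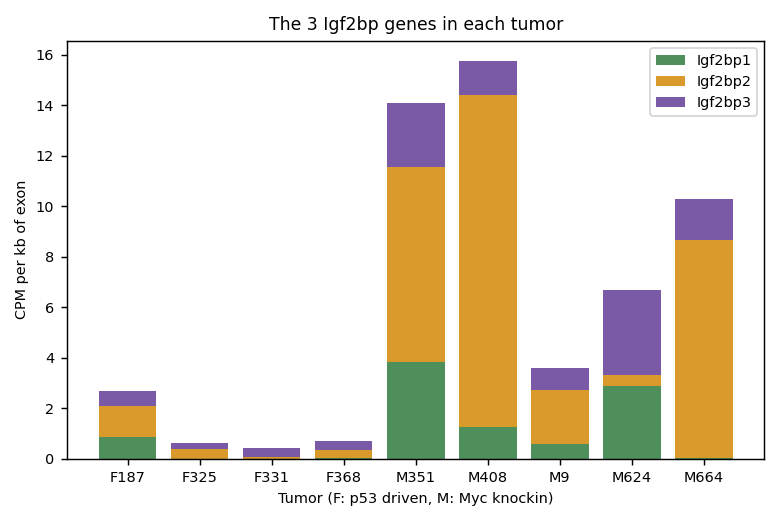
Stacked levels of Igf2bp1, Igf2bp2 and Igf2bp3 in CPM per kb of exon, with 1 bar per tumor and the p53-driven tumors on the left. The bars reach 0.408 to 2.66 in the p53-driven and 3.61 to 15.8 in the Myc-knockin tumors, background included, without which M9, at 0.635, falls below F187, at 1.82. M624 is the one Myc-knockin tumor with little Igf2bp2.

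The Lin28 genes were near the limit of detection. Lin28b (ENSMUSG00000063804, chromosome 10, 45376620 to 45486395, minus strand) had 0 counts in F325, F331 and F368, which allows up to 0.233, 0.259 and 0.365 CPM, and 9 counts in F187, with 6.46 expected from background. Among the Myc-knockin tumors it was at 10.5, 2.38, 7.97, 0.305 and 2.16 CPM in M351, M408, M9, M624 and M664. These values rested on 17, 13, 10, 8 and 50 counts, of which background accounted for 10.2 in M351 and 11.3 in M9. The clearest signals were the 13 counts of M408 and the 50 counts of M664, where 1.38 and 0.433 were expected. The log2 fold change was 2.71 (standard error 1.70, edgeR adjusted p = 0.331), and the exact permutation p was 0.0635. Without F187 the p53-driven group is left with 0 counts, so that the fitted value, 8.59 (edgeR adjusted p = 0.0566), depends on the prior count. Closest to Lin28b in log2 level over the 9 tumors were D1Ertd622e (Pearson's r = 0.932), Polb (r = 0.919), the repair polymerase beta, and Dsp (r = 0.912), which encodes desmoplakin of desmosomes.

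Lin28a (ENSMUSG00000050966, chromosome 4, 134003330 to 134018841, minus strand) had 3, 0, 0 and 1 counts in F187, F325, F331 and F368 and 5, 3, 12, 17 and 0 counts in M351, M408, M9, M624 and M664. In CPM these were 1.18, 0, 0 and 0.122 for the p53-driven tumors and 3.08, 0.549, 9.56, 0.648 and 0 for the Myc-knockin tumors. The groups overlapped, and the exact permutation p was 0.206. The 3 counts of F187 and 5 of M351 were close to the 2.85 and 4.49 expected from background, and M9 had 12 against 4.97. Of the 7 exact tests in all, whose p values are unadjusted, those of Hmga1, Igf2bp3, Igf2bp2 and Hmga2 were under 0.05.

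Counted over tumors, M351 had all 7 genes above the highest p53-driven tumor, M9 6, M408 5, M624 4 and M664 3. Of all genes tested, the share above the highest p53-driven tumor was 33.2% in M351, 34.8% in M9, 28.6% in M408, 37.9% in M624 and 33.3% in M664. That order changed when the expected background was taken off both groups. M351 and M408 then had 7 genes above the highest p53-driven tumor, M624 and M664 5 each, and M9 only Lin28a, Igf2bp2 and Hmga1, which makes 3. The shares of all genes were then 20.8% in M351, 30.3% in M408, 39.6% in M624, 35.1% in M664 and 18.8% in M9. In M408 all 7 genes had a Poisson lower limit above background, and in M351 4 did, Igf2bp1, Igf2bp2, Igf2bp3 and Hmga1, while Lin28a, with 5 counts against 4.49 expected, and Hmga2 and Lin28b were within counting error of it. In M9, Lin28b, Igf2bp1, Igf2bp3 and Hmga2 had no more counts than background gives. No single tumor led for every gene. Among the Myc-knockin tumors, Lin28b and Igf2bp1 were highest in M351, Igf2bp2 and Hmga2 in M408, Lin28a in M9, Igf2bp3 in M624 and Hmga1 in M664. Per kb of exon, Hmga1 was the most abundant of the 7 in M408, M9, M624 and M664, at 32.1, 3.00, 67.0 and 68.0 CPM per kb, and Igf2bp2 was in M351, at 7.73 CPM per kb.

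**Figure D4:**
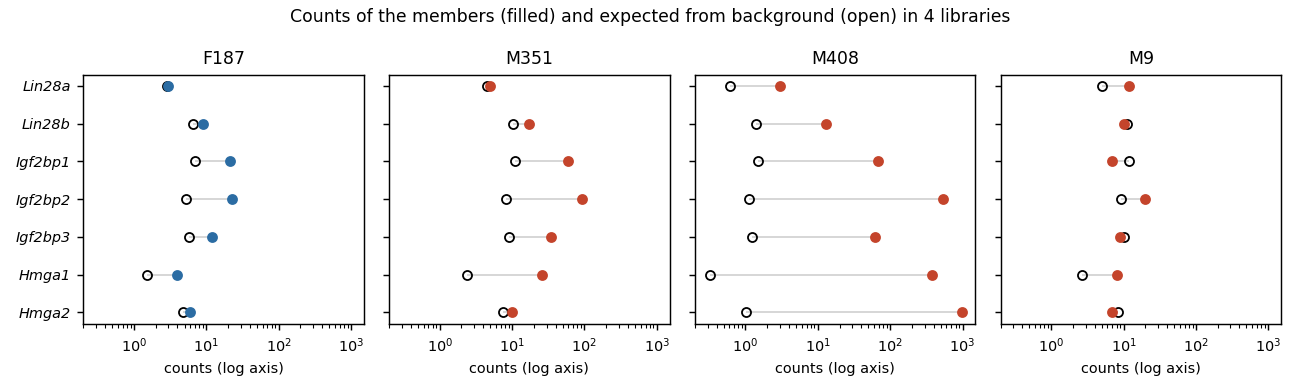
Counts of the 7 genes (filled points) and the counts expected from background (open circles) in the 4 libraries with satellite reads, on log axes. In M408 every filled point lies right of its open circle, whereas in M9 the points of Lin28b, Igf2bp1, Igf2bp3 and Hmga2 lie at or left of it.

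**Figure D5:**
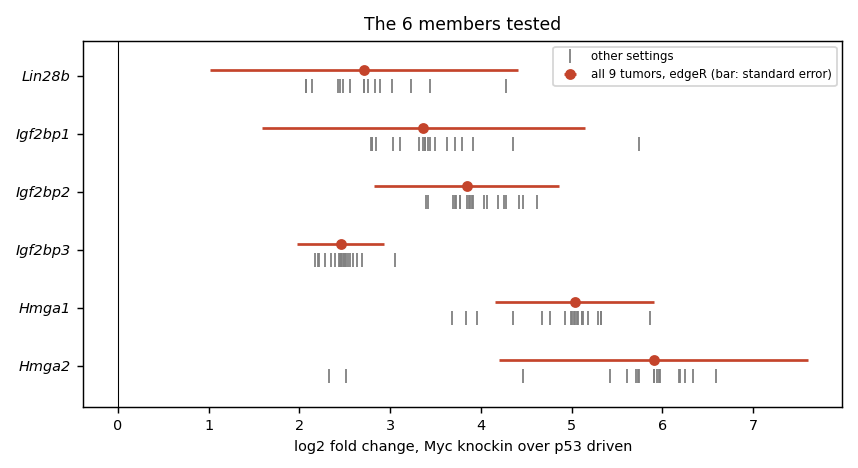
Log2 fold change, Myc knockin over p53 driven, of the 6 genes tested. Red points are the fit with all 9 tumors and edgeR, red bars its standard error, and grey ticks the fits with other normalizations, filters, tools and tumor sets. Every tick is above 0, but not every fit tested all 6 genes, and the fits with background subtracted held no Lin28b and no Hmga2. For Lin28b and Igf2bp1 the fits without F187 are not drawn, since the p53-driven tumors left hold 0 and 1 counts. The ticks of Igf2bp3 lie close together, and 2 of those of Hmga2, from fits without M408, lie far below the others.

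The wider let-7 and mRNA-binding pathway was read from lists of genes. The 12 let-7 precursor genes had at most 1 count in any library and were not tested. Precursor and mature microRNAs are not what an oligo-dT library measures. Of 19 genes of microRNA processing and let-7 uridylation, 1 was called higher and none lower, with a median log2 fold change of -0.01 against 0.14 over all genes tested. That gene was Hnrnpa1, an RNA-binding splicing protein that also binds let-7 precursors, at 25.7 to 45.4 CPM in the p53-driven and 48.6 to 176 CPM in the Myc-knockin tumors (log2 fold change 1.59, standard error 0.40, edgeR adjusted p = 0.0468). Dicer1, the nuclease that makes mature microRNAs, differed by a log2 fold change of 0.33 (edgeR adjusted p = 0.456).

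Among 31 tested genes listed as let-7 targets, 1 was called higher, Myc, and 3 lower, with a median log2 fold change of 0.33. Myc is the gene knocked in, so its call follows from the genotype and is no result about let-7 targets. Of the genes called lower, Tgfbr1, the type I receptor for TGF-beta, fell by 2.19 on the log2 scale (edgeR adjusted p = 0.0223) and Gnptab, which tags lysosomal enzymes, fell by 1.85 (edgeR adjusted p = 0.0363). Trim71, an embryonic let-7 target that is not called, was at 0 CPM in F325, F331 and F368, 3.16 in F187, and 12.9, 16.7, 12.0, 1.75 and 0.302 in M351, M408, M9, M624 and M664 (log2 fold change 4.03, edgeR adjusted p = 0.165). It is named here after its values were seen.

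Of 23 tested mRNAs on a list of those bound by Igf2bp proteins, 2 were called higher, Gli1 and Myc, and 1 was called lower, with a median log2 fold change of 0.11. The call of Myc again follows from the genotype, and Hmga2, itself an oncofetal gene studied here, is also on this list. Gli1, a transcription factor of the Hedgehog pathway, was at 0.790 to 1.79 CPM in the p53-driven tumors and at 11.7, 20.1, 15.9, 204 and 57.4 CPM in M351, M408, M9, M624 and M664 (log2 fold change 5.51, standard error 0.96, edgeR adjusted p = 0.0217). Igf2, the growth factor mRNA after which the family is named, was looked up after the values were seen. It was at 0.365 to 1.21 CPM in the p53-driven tumors, 357 CPM in M624, and between 0.616 and 7.17 CPM in M351, M408, M9 and M664, and it was not called (adjusted p = 0.0682, edgeR). Its neighbour H19, a noncoding RNA on the same list, was also highest in M624, at 5064 CPM, while the other Myc-knockin tumors had 25.8 to 549 CPM and the p53-driven tumors 1.97 to 157 CPM (adjusted p = 0.143, edgeR). M624 was also the tumor with the highest Igf2bp3. None of 18 tested partners of Igf2bp proteins in mRNP granules and m6A writing was called in either direction, with a median log2 fold change of 0.20.

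Of 18 tested genes for other high mobility group proteins, 2 were called higher and none lower, with a median log2 fold change of 0.56. Hmgb2, which bends DNA and is abundant in dividing cells, was at 7.17 to 11.1 CPM in the p53-driven and 20.9 to 104 CPM in the Myc-knockin tumors (log2 fold change 2.44, edgeR adjusted p = 0.0252). Hmgb3 had a log2 fold change of 1.73 (edgeR adjusted p = 0.0465). None of the 8 tested genes among 21 other embryonic and oncofetal genes was called, with a median log2 fold change of 0.67, and the remaining 13 did not pass the filter.

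Some cell type markers differed between the genotypes as well. Of all 15365 genes tested, 461 were called lower in the Myc-knockin tumors and 348 higher. No tested marker of chondrocytes, leukocytes, endothelium, skeletal muscle, red cells or fat cells was called, and 2 of 10 macrophage genes were called lower. Only 9 of 11 chondrocyte, 6 of 10 leukocyte, 1 of 6 red cell and 3 of 6 fat cell markers passed the filter. The rest of these markers could not be called. Runx2 and Sp7, which define the osteoblast lineage, were present in every tumor and ran from 246 to 371 and from 180 to 244 CPM in the p53-driven tumors, and from 9.18 and 25.9 CPM in M624 up to 194 and 240 CPM among the rest of the Myc-knockin tumors. Of 14 osteoblast genes, 2 were called lower, Bglap and Bglap2, both coding for osteocalcin and both at 0 in M408, with Bglap2 at 0 in M624 too, and the list's summed level was 71605 to 156192 CPM in the p53-driven and 4655 to 47227 CPM in the Myc-knockin tumors. Osteoclast markers were called lower in 7 of 9, with sums of 2862 to 14440 CPM and 152 to 2617 CPM. Cycling cell genes were called higher in 3 of 14, with sums of 520 to 879 CPM and 806 to 1808 CPM. The part of cell makeup in the levels of the 7 genes was not tested.

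Promoters were searched for the E-box CACGTG, the palindromic word that Myc binds with its partner Max, in RefSeq's windows from 250 bases before to 50 after each start site (GRCm38.p6). 6 of the 7 genes were in that table, and Igf2bp1 was missing. Igf2bp3 had 2 matches and Lin28b 1, Lin28a, Igf2bp2, Hmga1 and Hmga2 had none in these windows, and 7.15% of 32851 promoters had at least 1. The first base of the match lay 23 bases before and 5 bases after the start of Igf2bp3, and 49 bases before that of Lin28b. The matches are printed in capitals, since Igf2bp3 is 1 of the 2 genes called:
Igf2bp3, chr6:49214960-49214989, minus strand: gctgggattcctCACGTGagacgttgattt
Igf2bp3, chr6:49214932-49214961, minus strand: ttgtagtttgaaCACGTGgctcattcaaaa
Lin28b, chr10:45470233-45470262, minus strand: aattgacagagtCACGTGtgctcaggggcc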

How the data were processed

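RNA-Seq was done on whole tumors from 4 p53-driven and 5 Myc-knockin GEMMs, with stranded libraries of oligo-dT-enriched mRNA. The authors trimmed the reads with Trim Galore, aligned them to mm10 with STAR and assigned them to genes with featureCounts, and they deposited raw counts per gene without normalization. The strand setting and what was done with multi-mapping reads are not given in the sources used here. Whether replicates came from separate litters is not stated, so p values measure the spread between these tumors. Columns were grouped by names in the study's supporting data (6) or by the letter M (3), and no column could be tied to a numbered sample.

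Differences were tested in R 4.3.3 with edgeR 4.0.16 (filterByExpr with a minimum count of 10, TMM, glmQLFit, glmQLFTest), and p values were adjusted by Benjamini-Hochberg over 15365 genes. The script was tested on simulated data. Values per tumor are TMM-normalized CPM, with a prior count of 2 for log2 CPM. For single genes an exact permutation test was run, two-sided, with every arrangement of 5 and 4 tumors (Python 3.11.15, scipy 1.17.1 as the model for the two-sided p). Background was the counts per exon kb on 1824 chemosensory receptor genes. Satellite genes were those with 0.01% of counts or more in each of F187, M351, M408 and M9. Their lowest share there also had to exceed 100 times the highest share in the other 5 libraries. The 4 libraries were named in this rule, which used no annotation of repeats. Positions came from GENCODE, which matched 55111 identifiers. Alternatives used other normalizations (upper quartile, library size alone, DESeq2 size factors), other filters, DESeq2 1.42.0, limma-voom (limma 3.58.1), background subtracted, satellite genes removed, and tumors left out. Adding Hmga1 and Hmga1b together, and combining background subtraction with removal of M624 and M664, were added after seeing the data.

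The 7 genes and all gene lists were chosen with earlier results of these data known. Named were the 7 genes, Myc and Trp53, in each list up to 4 called genes with the largest log2 fold change, and for each tested gene the 3 with the highest correlation. Markers of chondrocytes, macrophages, leukocytes, endothelium, skeletal muscle, red cells and fat cells were also counted, of which 2 of 10 macrophage genes were called lower and none of the other genes that passed the filter was called. Not analysed here were the proteome, miRNAs and human tumors. The values of 1 gene called lower on these lists are not reported here.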

Additional observations from a re-analysis of the deposited data

Results flagged for a closer look

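Within groups of 4 or 5 tumors, 14 sets of values were screened for a tumor far from the others by Dixon's ratio, and 5 stood out. The limit is set so that chance alone exceeds it in about 1 of 20 for normally distributed values. That rate does not hold for CPM near 0 from libraries of unlike depth. For Lin28b, F325, F331 and F368 had 0 counts, so any count in F187 gives the largest ratio, 1. In 4 of the 5 sets the tumor was F187 among the p53-driven tumors, at 1.18 CPM of Lin28a, 3.55 CPM of Lin28b, 8.29 CPM of Igf2bp1 and 2.37 CPM of Hmga2. F187 is the p53-driven library with satellite reads, and its counts for these genes were 3, 9, 21 and 6, with 2.85, 6.46, 6.90 and 4.83 expected from background. The 95% Poisson interval lay above the expected count for Igf2bp1 and included it for the other 3 genes. The last was M408 among the Myc-knockin tumors, at 183 CPM of Hmga2, which rested on 998 counts with 1.03 expected from background.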

How the results depend on the processing

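No fit turned the direction of a gene that it tested, but not every fit tested all 6. With background subtracted, Lin28b and Hmga2 did not pass the filter, so they have no fit corrected for background. Hmga2 did not pass it without M624 and M664 either. Lin28b and Igf2bp1 did not pass it without F187, M351, M408 and M9. Of 809 genes called with all 9 tumors, the count became 136 with scaling by library size alone, 494 with all genes of at least 1 count, 1316 with at least 10 counts in every tumor, 2646 with DESeq2, 1663 with limma-voom, 4595 without F187, M351, M408 and M9, and 2248 at an adjusted p under 0.1. The 2 oncofetal genes called became 1 with library size alone, 4 with all genes of at least 1 count, where all 7 are tested, 0 with at least 10 counts in every tumor, where none of the 7 is tested, and 4 at an adjusted p under 0.1. Of all genes tested, 50 of 15365 were called higher with library size alone and 218 of 47719 with at least 1 count. At an adjusted p under 0.1 it was 1202 of 15365. Without the 4 libraries with satellite reads it was 2594 of 16495, and with background subtracted and M624 and M664 left out 337 of 13258. Igf2bp3 lost its call with library size alone (log2 fold change 2.51, edgeR adjusted p = 0.0985), with background subtracted (2.56) and with that and without M624 and M664 (2.17, adjusted p = 0.127), while at the latter Hmga1 stood at 3.95. Igf2bp2 gained a call with all genes of at least 1 count (3.77), DESeq2 (3.77), limma-voom (4.42), background subtracted (4.03), without M624 and M664 (4.27), with both (4.47) and at an adjusted p under 0.1 (3.84). Hmga2 gained one with all genes of at least 1 count (5.75), without the 4 libraries with satellite reads (2.51) and at an adjusted p under 0.1 (5.90). DESeq2 gave Hmga2 no adjusted p. The cause of these shifts was not tested.

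With each tumor left out in turn, 5 to 1588 genes and 0 to 4 of the oncofetal genes were called. No oncofetal gene was called without F325, F331 or F368, where 8, 6 and 5 genes were called in all, and without M9 4 were. The log2 fold change then ranged over 4.67 to 5.32 for Hmga1 (adjusted p 0.0126 to 0.0909), 2.22 to 2.69 for Igf2bp3 (0.0175 to 0.112), 3.40 to 4.62 for Igf2bp2 (0.0311 to 0.191), 2.32 to 6.59 for Hmga2 (0.0477 to 0.213), 2.07 to 8.59 for Lin28b (0.0566 to 0.625) and 2.79 to 8.55 for Igf2bp1 (0.0565 to 0.507), all from edgeR, the top of the last 2 being without F187. In the exact permutation test, library size alone gave p = 0.0476 for Lin28b and 0.0635 for Igf2bp3 and Hmga1. Without M624 and M664, 35 arrangements allow no p under 0.0571. No paired analysis was possible because the table's columns carry no replicate numbers. For every gene, 3 counts in M9 already make 2.39 CPM.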
